A study of Mus musculus with 25 samples.

Results

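Macrophages and microglia were compared within the same droplet libraries of the injured mouse spinal cord, in the first 3 days after injury. A library entered when it was labelled day 1, 2 or 3 and held at least 20 cells of each of the authors' cell type codes 1 and 2, which gave 8 of the 16 libraries of these days and 8 of the 25 libraries in all. They held 10280 of the 30958 deposited cells, 6161 of code 1 (microglia) and 4119 of code 2 (macrophages, monocytes included). Single-cell 3′ counts were measured in myeloid cells sorted from the lesion, and each library held tissue from 1 to 3 mice.

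Every mouse carried the Cx3cr1CreERT2 allele, an inducible Cre at the gene of the fractalkine receptor. The mixed libraries came from mice with that allele alone, sorted for YFP, and gave 2 pairs at day 1 (D1 mixed 1 and 3), 2 at day 2 (D2 mixed 1 and 2) and 1 at day 3 (D3 mixed 3). The resident libraries came from mice that also carried R26tdTomato, a red reporter that Cre switches on, sorted for red and YFP, and gave 1 pair at day 2 (D2 resident 1) and 2 at day 3 (D3 resident 1 and 2). Infiltrating libraries (YFP without red, from mice of that same genotype) held almost no microglia and served for reference and for the sort comparison. Per the labels D2 mixed 1 and D3 resident 1 were female and the other 6 male. Ages were not in the labels used here.

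Microglia are the macrophages that live inside the cord, seeded in the embryo and kept in place by signals such as TGF-beta and ligands of the Csf1 receptor. After injury, monocytes enter from the blood and become macrophages in the lesion, where both populations clear debris. The lineages are usually told apart by genes such as P2ry12, Tmem119 and Sall1 for microglia, and Ccr2 and Ly6c2 for monocytes, although activation lowers several of the former.

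The balance of the types differed widely between the libraries. Microglia numbered 23 to 1500 cells and macrophages 28 to 3019. In D2 mixed 2 and D3 mixed 3 most cells were macrophages (645 against 23, and 3019 against 521), while microglia were the majority in the other 6. The summed counts ran from 135097 to 7794902 UMIs (unique molecules counted) in microglia and from 235999 to 22068469 in macrophages. The median macrophage held more UMIs than the median microglial cell in 7 libraries, the exception being D2 mixed 1 (1762 against 3142). Transcripts of mitochondrial genes made up 0.891% to 2.50% of microglial and 0.340% to 1.77% of macrophage UMIs and were the smaller share of the summed counts in macrophages in all 8. The median of the deposited share per cell was smaller in macrophages in 5 libraries and larger in D2 mixed 1, D2 mixed 2 and D3 resident 1. Of the cell barcodes, 16 occurred in more than 1 of the 8 libraries. No doublet caller was run.

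**Figure D1:**
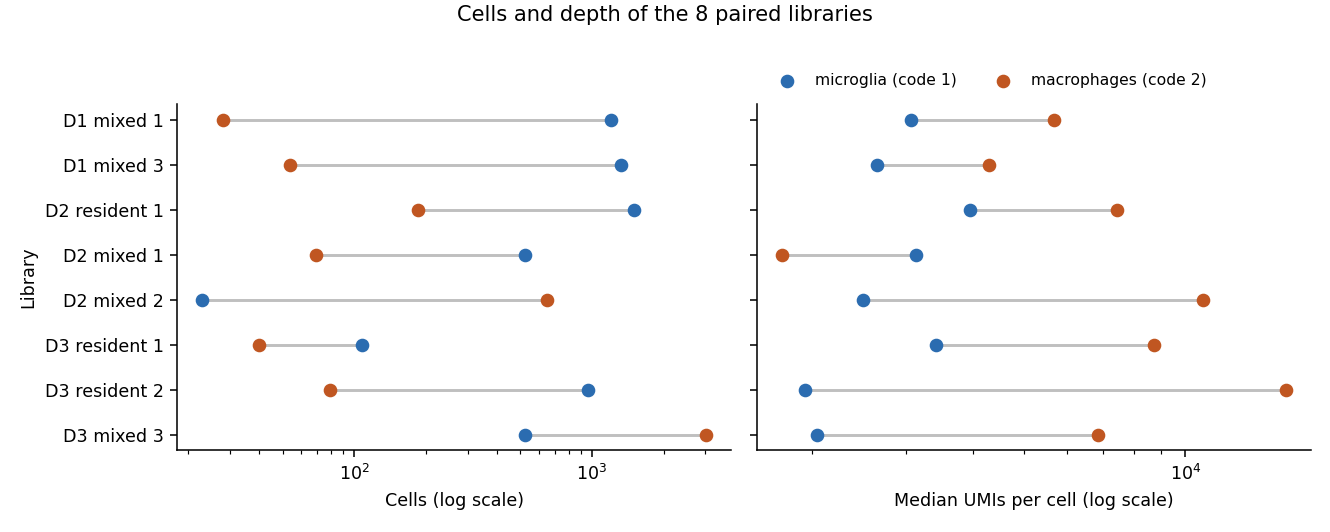
Cells (left) and median UMIs per cell (right) of microglia and macrophages in the 8 paired libraries, both on log axes, with a grey line joining the types of a library. Macrophages outnumber microglia in D2 mixed 2 and D3 mixed 3 alone, and their median UMI count is the lower one only in D2 mixed 1.

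The marker genes bore out the names of the codes. All 9 microglia markers were lower in macrophages, and their summed level ran from 4787 to 13228 CPM (UMIs relative to the total of the sum, scaled to the same total) in microglia and from 680 to 1396 in macrophages. The 4 tested monocyte markers were all higher in macrophages, and the whole list of 8 summed to 11.6 to 183 CPM in microglia and 724 to 5543 in macrophages. The codes have no names in the deposited table and how they were assigned is not given in the sources used here. If they were drawn from the same counts, a difference between the types is partly built in, and the p-values below then measure only how a difference compares with the spread between libraries, which may be technical.

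RNA of one type can be read in droplets of the other, so the same markers were followed in the type that should lack them. In macrophages the median microglia marker stood at 2.01% to 8.59% of its microglial level in 7 libraries and at 28.5% in D1 mixed 3. Of the 54 macrophages of D1 mixed 3, 15 lay in deposited cluster 2 and 5 in cluster 3. Over the 8 libraries these clusters held 1155 and 975 microglia against 84 and 28 macrophages. The part of such cells in the share was not tested. Within a library this share differed between genes: in D3 mixed 3 Gpr34 stood at 3.31 CPM in macrophages and 386 in microglia, and Olfml3 at 137 and 1765 CPM. In the infiltrating libraries, where microglia were 0.253% to 0.651% of the cells, macrophages still had 278 to 605 CPM of these markers. Gpr34 stood at 0 to 3.37 CPM there.

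In the other direction, the median macrophage or monocyte marker in microglia stood at 0.556% to 4.22% of its macrophage level in 7 libraries and at 16.3% in D3 mixed 3. Chil3 was at 0 in the microglia of D3 mixed 1 and 2, unpaired libraries where macrophages were 0.395% and 0.627% of the cells, against 1.31 to 18.2 CPM in microglia of the 8 paired libraries. Ccr2 was at 0 in the microglia of both, and also in those of the paired libraries D2 mixed 1, D2 mixed 2 and D3 resident 1. Not all markers were this low where macrophages were few: in the microglia of D3 mixed 1 and 2, Fn1 was at 155 and 250 CPM, Lyz2 at 1323 and 1426.5 CPM and Lgals3 at 862 and 743 CPM. The 17 monocyte and macrophage markers summed to 2457 and 2549 CPM there, within the range of 1262 to 3407 CPM of the paired libraries. What cross-cell RNA adds to single genes was not tested beyond the alternative that subtracts a fixed share of each library.

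**Figure D2:**
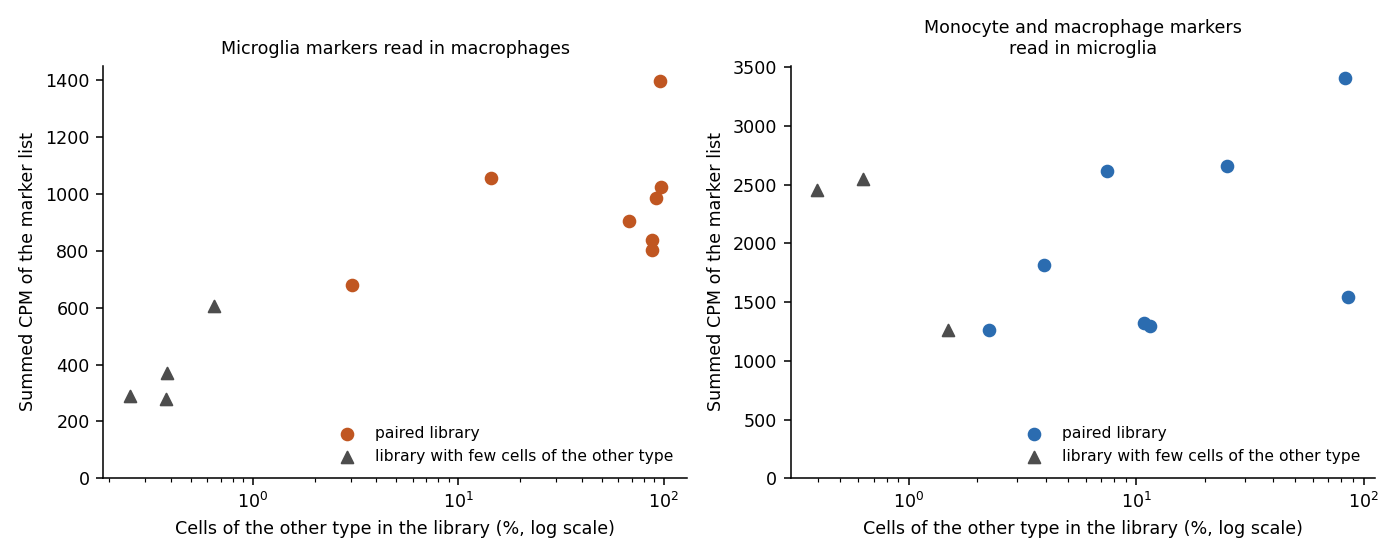
Summed CPM of the 9 microglia markers in macrophages (left) and of the 17 monocyte and macrophage markers in microglia (right), against the share of cells of the other type in the library (log axis). Circles are the paired libraries and triangles unpaired early libraries; microglia markers in macrophages lie between 680 and 1396 CPM in the paired and between 278 and 605 CPM in the infiltrating libraries, and monocyte and macrophage markers in microglia between 1262 and 3407 CPM in the paired and at 1261, 2457 and 2549 CPM in the unpaired ones.

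Across the genome the types differed at many genes, in both directions about equally. Of 8163 genes tested with edgeR's quasi-likelihood test, paired by library and adjusted by Benjamini-Hochberg, 3153 (38.6%) passed an adjusted p of 0.05, of which 1543 (18.9%) were higher in macrophages and 1610 (19.7%) lower. With a log2 difference of at least 1 as well, 767 (9.4%) were higher and 753 (9.22%) lower. The median log2 difference over all genes was 0.02. The levels in the 8 macrophage sums did not overlap those in the 8 microglia sums for 550 genes (6.74%), and 933 (11.4%) were higher and 1001 (12.3%) lower in every library. These shares are the background for the gene groups below, whose CPM are scaled by edgeR's normalization factors. Of 101 named genes called here, 69 kept their call under every alternative that tested them, all with a log2 difference of at least 1.09 in size. The 32 that lost it under at least 1 alternative were Apoe, C3ar1, Ccl3, Cd68, Cenpa, Ctsb, Ctsl, Ctsz, Cx3cr1, Cxcl14, Fcgr2b, Gapdh, H2-DMb1, Hist1h1e, Hk1, Hk2, Hmox1, Il18, Itga6, Lamp1, mt-Nd1, Myd88, Nrros, Osm, P2rx4, Pfkfb3, Slc40a1, Tgfbr1, Tgfbr2, Tlr2, Tlr7 and Trem2. Cx3cr1 and Trem2 lost it only without the pairing.

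**Figure D3:**
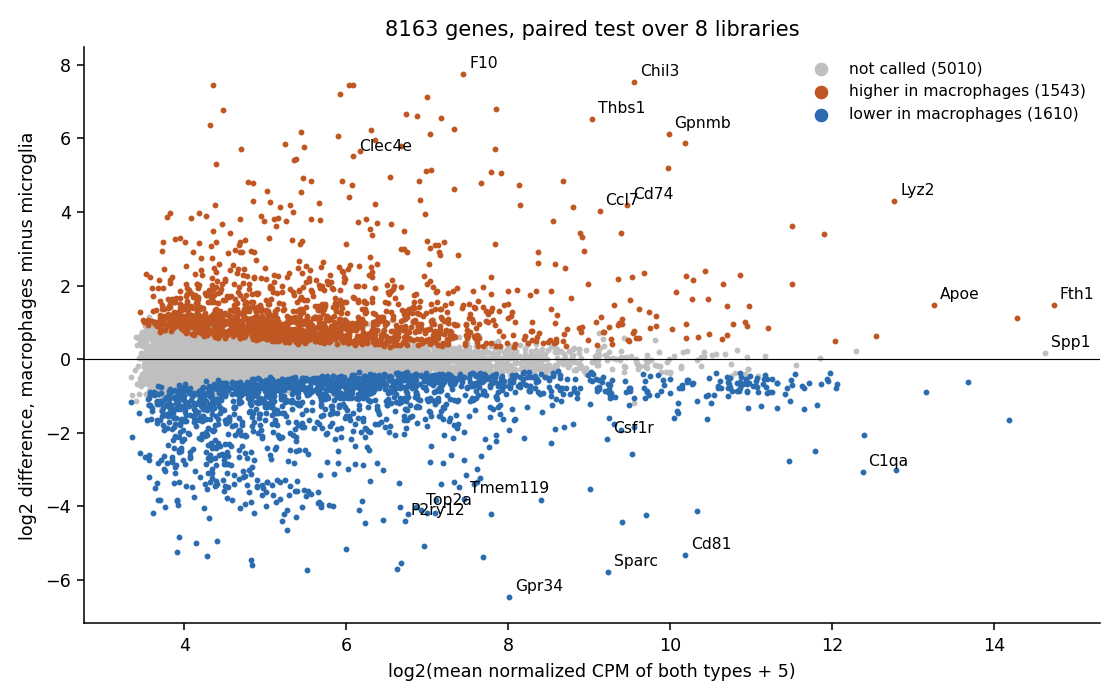
Log2 difference between macrophages and microglia for the 8163 tested genes against the log2 mean normalized CPM of both types (5 CPM added), with 1543 genes higher and 1610 lower in macrophages in colour. Labelled genes are described in the text; Spp1 lies near 0 at a high level.

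The 8 genes with the largest excess in microglia, among those with a mean of at least 50 CPM there and the same direction in all 8 libraries, were Gpr34, Sparc, Cd81, Jam2, Ecscr, Cd34, Serpine2 and Siglech. Gpr34, a receptor for lysophosphatidylserine, stood at 106 to 736 CPM in microglia (median 536) and at 0.789 to 14.8 CPM in macrophages (median 6.11), a log2 difference of -6.47 (SE 0.43, n = 8 libraries, adjusted p = 3.9e-08 by edgeR). Sparc, a secreted matrix-binding glycoprotein, stood at 460 to 2484 CPM (median 932) against 2.76 to 205 (median 14.4), with a difference of -5.79 (SE 0.57). The groups did not overlap for either gene, and the highest macrophage value of Sparc was that of D1 mixed 3. Cd81, a tetraspanin, stood at 1325 to 3246 CPM against 10.9 to 258, a difference of -5.31 (SE 0.44).

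Jam2, Ecscr, Cd34, Serpine2 and Siglech differed by between -5.16 and -5.74. Siglech is a sialic acid binding lectin used as a marker of microglia, and Serpine2 is a secreted inhibitor of serine proteases. Of the classical markers, P2ry12, a receptor for ADP that guides microglial processes, stood at 85.9 to 349 CPM in microglia (median 179) and 3.81 to 25.3 in macrophages (median 9.16), a difference of -4.39 (SE 0.37). Tmem119, a membrane protein, differed by -3.80 (SE 0.27). The groups overlapped for neither.

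The 8 genes with the largest excess in macrophages, chosen in the same way, were F10, Chil3, Sirpb1c, Gda, Plbd1, Slpi, Ahnak and Gm21188. F10, coagulation factor X, stood at 0 to 4.67 CPM in microglia (median 1.50) and at 54.3 to 612 CPM in macrophages (median 336), a log2 difference of 7.76 (SE 0.47, n = 8, adjusted p = 2.2e-08 by edgeR). The lowest macrophage value belonged to D3 mixed 3. Chil3, a chitinase-like protein of monocytes and macrophages, stood at 1.40 to 19.3 CPM (median 8.56) against 429 to 2243 (median 1515), a difference of 7.54 (SE 0.50). The groups did not overlap for either.

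The other 6 genes, Sirpb1c to Gm21188, had differences of 6.66 to 7.46. Slpi encodes a protease inhibitor and Plbd1 a lysosomal phospholipase-like protein, both also known from neutrophils. Neutrophil markers summed to 25.4 to 365 CPM in macrophages and 28.1 to 103 CPM in microglia, and of the 2 of 7 that were tested S100a8 was higher and Csf3r lower in macrophages. S100a8 stood at 4.24 to 338 CPM in macrophages and 3.97 to 92.8 in microglia, both highest in D1 mixed 3, and Mmp9 at 0 to 11.99 against 0 to 0.629 CPM. The defining markers Ly6g and Retnlg were at 0 in every macrophage sum, S100a9 at 0 to 2.70 CPM and Cxcr2 at 0 to 7.30 CPM; their part in these differences was not tested. Lyz2, lysozyme, stood at 141 to 1444 CPM in microglia (median 406) and 1566 to 30243 in macrophages (median 12259), a difference of 4.30 (SE 0.42) without overlap.

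**Figure D4:**
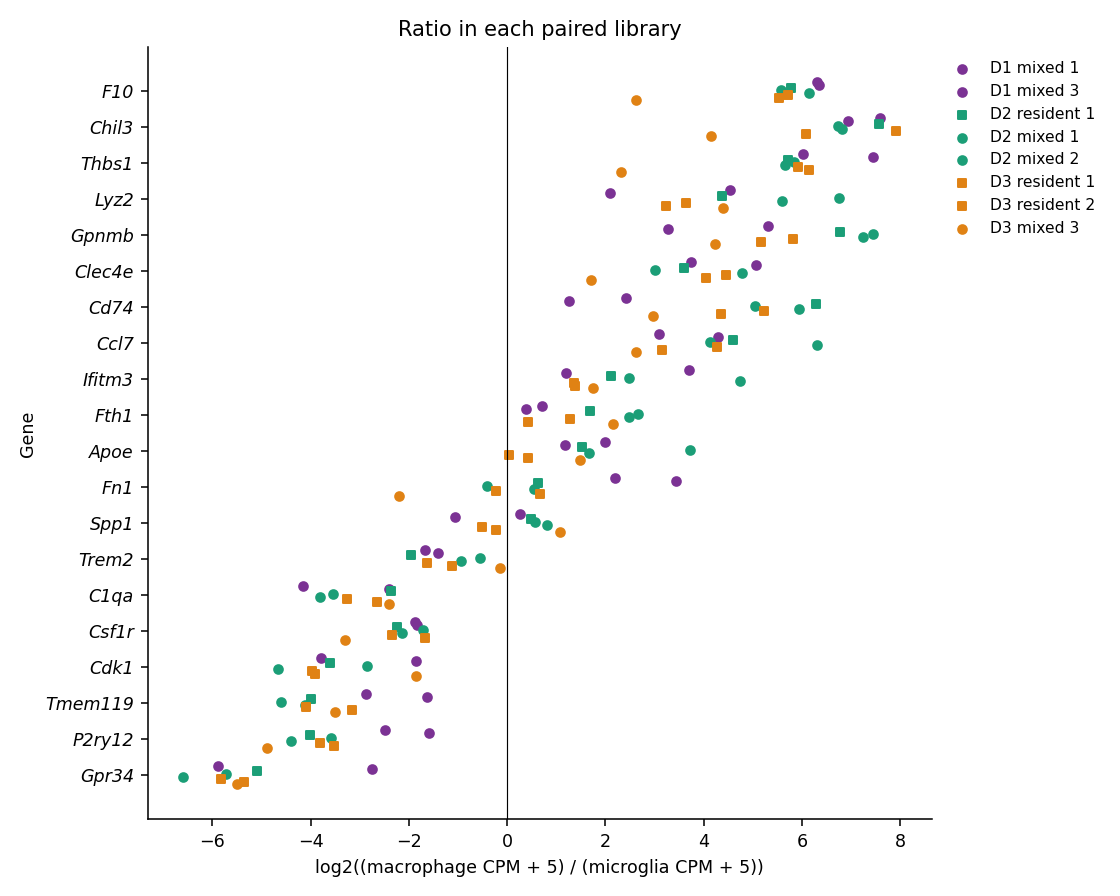
Log2 ratio of macrophage to microglia CPM (5 added to each) for 20 genes in each of the 8 paired libraries, with colour for the day and squares for resident libraries. F10 and Thbs1 are lowest in D3 mixed 3, while Fn1 and Spp1 fall on both sides of 0.

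Lineage transcription factors differed between the types in both directions. Of 16 lineage factors tested, 8 were higher, 4 lower and 4 not called, with a median difference of 0.70. Sall1, a repressor that maintains microglial identity, stood at 19.8 to 42.8 CPM in microglia and 0 to 4.60 in macrophages, a difference of -4.93 (SE 0.53), and Sall3 and Mef2c were lower by -3.47 and -2.17. Bhlhe40, a helix-loop-helix factor of macrophages, stood at 10.7 to 25.7 CPM against 29.9 to 117, a difference of 2.28 (SE 0.20) without overlap, while its relative Bhlhe41 was lower (-0.91, SE 0.21). Klf4 (2.29), Fosl2 (2.21) and Cebpb (1.36) were higher. Spi1, which encodes PU.1, the factor required by all macrophages, differed by 0.03 (SE 0.12, adjusted p = 0.88 by edgeR).

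Receptors for growth factors and TGF-beta differed in part. Csf1r, the receptor for Csf1 and Il34, stood at 520 to 1329 CPM in microglia (median 1097) and 110 to 343 in macrophages (median 223), a difference of -2.17 (SE 0.18) without overlap. Tgfbr2 and Tgfbr1 were lower by -0.91 and -0.74, Tgfbr1 in 5 of 8 libraries, whereas Csf2rb, the shared chain of the GM-CSF receptor, was higher (1.26, SE 0.18) without overlap. Of 10 tested members of this list 2 were higher, 3 lower and 5 not called (median 0.26). Nrros, which anchors latent TGF-beta, was higher by 0.74 (SE 0.19).

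Among 5 tested chemokine receptors, 3 were higher and 1 lower in macrophages (median 0.79). Cxcr4, the receptor for Cxcl12, stood at 0.466 to 6.44 CPM in microglia and 13.7 to 136 in macrophages, a difference of 4.93 (SE 0.43) without overlap. Ccr1 was higher by 3.03 (SE 0.25). Cx3cr1, the fractalkine receptor, was lower by -2.36 (SE 0.26) in 7 of 8 libraries, with levels of 6.53 to 693 CPM in microglia and 0 to 145 in macrophages. The gene carries the Cre allele in every mouse, and the alleles were not told apart here.

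Several monocyte genes did not pass the filter on low counts, since a few sums held too few molecules, and their values come from the same fit without that filter. Ccr2, the receptor for Ccl2 that brings monocytes out of the blood, had 18 UMIs in all microglia and 2127 in all macrophages, with a median of 0.225 against 134 CPM and a difference of 7.72 (SE 0.33). Ly6c2 had 21 against 2596 UMIs and differed by 7.20 (SE 0.36). Slc2a5, a fructose carrier of microglia, had 438 against 8 UMIs and differed by -6.01 (SE 0.54). As fitted values of genes with few molecules, these sizes depend on the constant that edgeR adds.

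The chemokine genes split by member. Of 11 tested ligands, 4 were higher in macrophages, 3 lower and 4 not called, and the median was 0.03. Ccl7, a ligand of Ccr2, stood at 12.8 to 142 CPM in microglia (median 42.7) and 342 to 2171 in macrophages (median 973), a difference of 4.02 (SE 0.30) without overlap. Ccl2, another ligand of Ccr2, was higher by 2.40 (SE 0.30) in all 8 libraries, with 122 to 958 CPM against 453 to 6460. Ccl12, from the same gene cluster, went the other way: it stood at 260 to 3403 CPM in microglia and 24.4 to 823 in macrophages, a difference of -2.57 (SE 0.32), and was lower in all 8 libraries. In the RefSeq annotation of GRCm38.p6 the starts of Ccl2 and Ccl12 lie 66.3 kb apart on chromosome 11 with Ccl7 and Ccl11 between them.

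Ccl3, a ligand of Ccr1, was called lower (-1.05, SE 0.39, adjusted p = 0.043 by edgeR), but macrophages held 41.8 to 2465 CPM and it was higher in 2 libraries. Without pairing the difference was 0.17, so its direction rested on the pairing. Cxcl2 and Cxcl3, neutrophil attractants, did not pass the filter and differed by 5.16 (SE 0.32) and 7.05 (SE 0.38) without it. Their macrophage levels ran from 1.31 to 4225 CPM and from 0 to 8653 CPM.

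Of 11 tested cytokines and growth factors, 4 were higher, 2 lower and 5 not called (median -0.13). Gdf15 was higher by 3.79 (SE 0.54) and Il1rn, the antagonist of the interleukin-1 receptor, by 2.58 (SE 0.46), with 0 to 140 CPM of Il1rn in microglia and 6.76 to 281 in macrophages. Tnf (1.19) and Osm (1.42) were also higher. Pdgfb was lower in all 8 libraries (-1.89, SE 0.47) and Il18 by -0.89 (SE 0.28). Il1b did not pass the filter: it had 87 UMIs in microglia and 438 in macrophages, and 1 of the 8 macrophage sums held none.

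Genes of matrix and clotting proteins were mostly higher in macrophages, 10 of 13 tested, with 1 lower and a median of 2.24 against 0.02 for all genes. Thbs1, thrombospondin 1, stood at 1.86 to 19.3 CPM in microglia (median 10.2) and 117 to 3694 in macrophages (median 708), a difference of 6.52 (SE 0.50) without overlap. F13a1, a subunit of clotting factor XIII, was higher by 5.72 (SE 0.38), Mmp8 by 5.84 (SE 0.41), Timp1 by 4.27 (SE 0.41) and Plaur, the urokinase receptor, by 1.37 (SE 0.17). Timp2 was lower in all 8 libraries (-1.60, SE 0.18). F7, coagulation factor VII, which starts 11.8 kb from F10 on chromosome 8 with no coding gene between them, was higher by 5.78 (SE 0.54); it is not on the list and was chosen after its value was seen.

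Fn1, fibronectin, gave no call over the days (0.57, SE 0.46, adjusted p = 0.35 by edgeR), with 194 to 704 CPM in microglia and 109 to 2143 in macrophages. It was higher in macrophages in 5 libraries and lower in 3. In D1 mixed 1 and 3 the macrophages held 1762 and 2143 CPM, and in D3 mixed 3 only 109 CPM beside 523 CPM in microglia. The difference passed the threshold without D3 mixed 3 (0.92) and with no filter on low counts (0.61). It also did between types captured apart (1.61), macrophages of infiltrating against microglia of resident libraries, without pairing or a term for day.

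Integrin and adhesion genes differed in both directions. Of 10 tested adhesion genes 5 were higher, 4 lower and 1 not called (median 0.26). Itgb7 stood at 0 to 6.44 CPM in microglia and 23.1 to 124 in macrophages, a difference of 6.18 (SE 0.46) without overlap, and its partner Itga4 was higher by 1.96 (SE 0.40). Cd44, the hyaluronan receptor, was higher by 2.91 (SE 0.25) and Itgax by 2.47 (SE 0.34). Selplg, the ligand of P-selectin, was lower without overlap (-2.14, SE 0.23), and Itgb5 was lower by -1.09 (SE 0.16). Itgam, the common marker CD11b, differed by -0.08 (SE 0.21) and was not called.

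**Figure D5:**
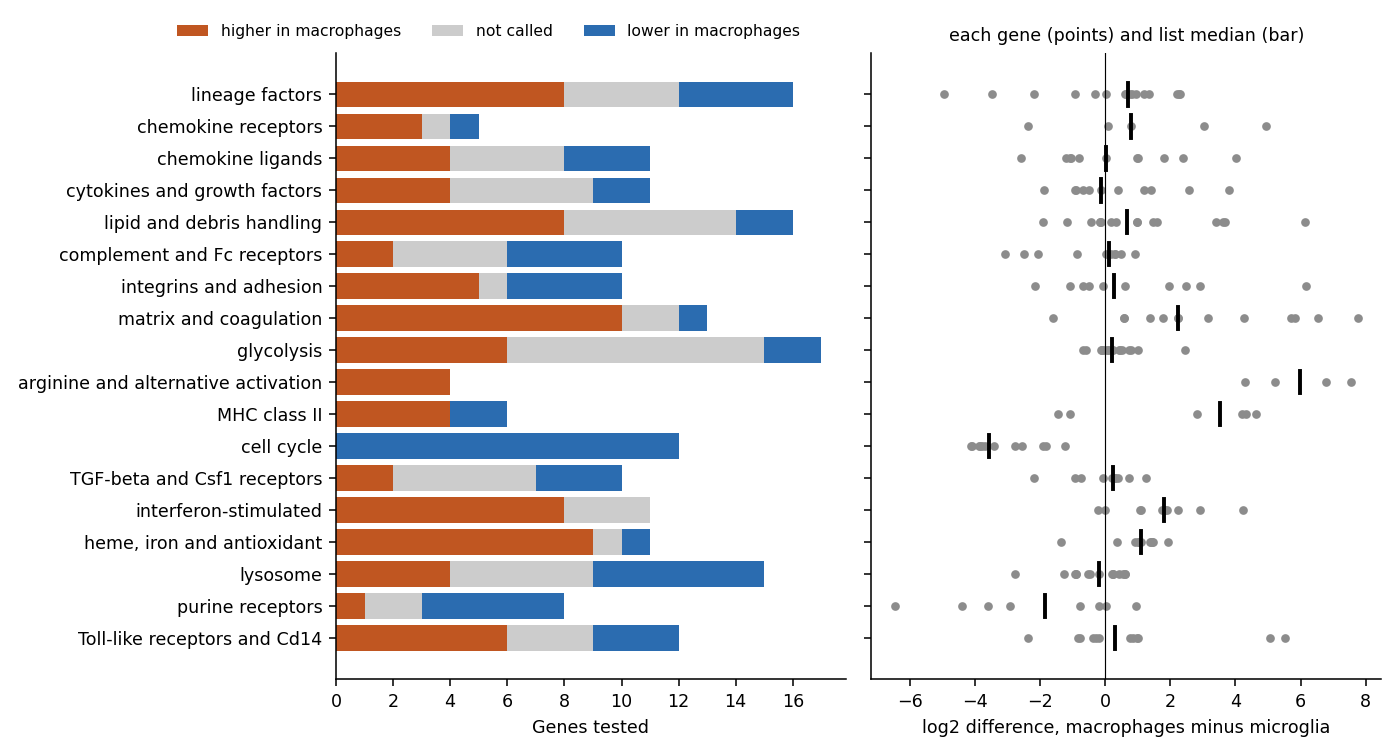
Numbers of tested genes of 18 lists that were higher, lower or not called in macrophages (left) and the log2 difference of each gene with the list median as a bar (right). All 12 tested cell cycle genes lie below 0, and 10 of 13 matrix and coagulation genes were called higher.

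Among genes for handling lipid and debris, 8 of 16 tested were higher in macrophages, 2 lower and 6 not called, with a median of 0.66. Gpnmb, a lysosomal glycoprotein of lipid-laden macrophages, stood at 1.17 to 309 CPM in microglia (median 6.62) and 92.0 to 5885 in macrophages (median 1888), a difference of 6.13 (SE 0.47). Its groups overlapped, yet it was higher in macrophages in each of the 8 libraries. Fabp5, a fatty acid binding protein, stood at 142 to 1228 CPM against 1020 to 17346, a difference of 3.61 (SE 0.37), and Fabp4 was higher by 3.67 (SE 0.50). By day, the difference of Fabp4 was 0.78 at day 1, where it was not called, 5.53 at day 2 and 3.22 at day 3. Lgals3 (3.41, SE 0.30) and Plin2, which coats lipid droplets (1.60, SE 0.16), were higher in all 8.

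The list also held genes that were higher in microglia. Lpl, lipoprotein lipase, was at 249 to 1216 CPM in microglia and 31.0 to 596 in macrophages (-1.91, SE 0.23), and Trem2, a receptor for lipids and debris, at 641 to 2405 against 239 to 2160 (-1.18, SE 0.19), both lower in macrophages in all 8 libraries. Apoe, apolipoprotein E, was higher in macrophages in all 8 (1.48, SE 0.31, adjusted p = 0.0014 by edgeR), with 757 to 18064 CPM against 3422 to 37405. When macrophages of infiltrating libraries were set against microglia of resident libraries, so that the types had been captured apart, Apoe was lower (-0.75). That fit was unpaired and had no term for day, and day 1 had infiltrating but no resident libraries. Type and day are therefore partly mixed in every value between types captured apart. The level in both types varied widely between libraries, and the source of the change in sign was not tested.

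Spp1, osteopontin, was among the genes with the most molecules and was not called: it stood at 15647 to 35654 CPM in microglia and 8808 to 74642 in macrophages, a difference of 0.18 (SE 0.22, adjusted p = 0.56 by edgeR). Igf1, a growth factor, differed by -0.49 (SE 0.27, adjusted p = 0.17 by edgeR), with 5.24 to 225 CPM against 0 to 155. It was lower and passed the threshold between types captured apart (-3.15) and within libraries without clusters 6, 7 and 10 (-0.79). Tyrobp (-0.16), Msr1 (-0.15), Axl (-0.45) and Mertk (-0.12) were not called.

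The 3 chains of C1q were lower in macrophages. C1qa, a chain of C1q, stood at 5346 to 15139 CPM in microglia (median 8712) and 392 to 2865 in macrophages (median 1338), a difference of -3.07 (SE 0.23) without overlap. C1qc was lower by -2.49 (SE 0.18) and C1qb by -2.07 (SE 0.18). The Fc receptor gene Fcgr3 was lower too (-0.86, SE 0.14), whereas the inhibitory Fcgr2b (0.93, SE 0.24) and the complement receptor C3ar1 (0.47, SE 0.13) were higher. Fcgr2b was among the genes called in the test of day 3 against day 1 below. Its difference was 2.10 at day 1, 0.88 at day 2 and 0.19 at day 3. Of 10 tested, 2 were higher, 4 lower and 4 not called (median 0.11). C3 did not pass the filter and had 21 UMIs in microglia and 368 in macrophages.

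Lysosomal genes were mixed, with 4 of 15 higher, 6 lower and 5 not called (median -0.19). The cathepsins Ctsl (-1.26, SE 0.24), Ctsz (-0.93, SE 0.17) and Ctsd (-0.89, SE 0.26) were lower. Ctsb, Cd68 and Lamp1 were called higher by 0.55 to 0.62, but none of the list was called higher between types captured apart, where their differences were -0.20, -0.047 and -0.071.

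Of 6 tested genes of MHC class II antigen presentation, 4 were higher and 2 lower in macrophages (median 3.51). H2-Aa stood at 1.46 to 22.0 CPM in microglia and 48.3 to 721 in macrophages, a difference of 4.62 (SE 0.49), and H2-Eb1 (4.32, SE 0.56) and Cd74, the invariant chain (4.20, SE 0.53), were higher as well, all without overlap. The size for Cd74 varied with day: 1.86 at day 1, 6.18 at day 2 and 4.21 at day 3. H2-DMa (-1.44, SE 0.16) and H2-DMb1 (-1.07, SE 0.21), which exchange peptides, were lower in all 8 libraries. Dendritic cell markers summed to 187 to 502 CPM in macrophages and 5.96 to 52.5 CPM in microglia. Nearly all of the sum in macrophages came from Cd24a (175 to 495 CPM), while Ccr7 stood at 0 to 21.2 CPM, Batf3, which was lower in macrophages, at 2.81 to 12.7 CPM, and Flt3, Cd209a, Zbtb46, Xcr1 and Clec9a at 0 to 8.20 CPM. Their part in the MHC class II values was not tested.

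Of 8 tested genes of a list of purine receptors, which also holds Gpr34 and the ectonucleotidase Entpd1, 5 were lower in macrophages and 1 higher (median -1.85). The lower ones were P2ry12, P2ry13, Gpr34, Adora3 and Entpd1. P2ry13 stood at 55.3 to 124 CPM in microglia and 2.89 to 11.8 in macrophages (-3.60, SE 0.26) without overlap, as P2ry12 did. The lowest coordinates of these genes lie 8.4 kb apart on chromosome 3, with no coding gene between them. Adora3, an adenosine receptor, was lower by -2.93 (SE 0.39). P2rx4, an ATP-gated channel, was higher in all 8 libraries (0.96, SE 0.20).

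Of 12 tested pattern receptors and adaptors, 6 were higher and 3 lower (median 0.29). Clec4e, the lectin Mincle that binds lipids of dead cells and microbes, stood at 0 to 6.29 CPM in microglia (median 1.92) and 20.2 to 375 in macrophages (median 97.2), a difference of 5.51 (SE 0.28, adjusted p = 7.1e-09 by edgeR) without overlap. Clec4d was higher by 5.06 (SE 0.35) without overlap, and Myd88 by 1.02 (SE 0.21). Tlr3 (-2.36, SE 0.39), Tlr2 (-0.83, SE 0.24) and Tlr7 (-0.76, SE 0.16) were lower. Cd14 was not called (-0.27, SE 0.37).

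Interferon-stimulated genes were higher in macrophages in 8 of 11 tested, none was lower, and the median was 1.82. Ifitm3, a membrane protein that limits virus entry, stood at 83.7 to 1249 CPM in microglia and 501 to 3219 in macrophages, a difference of 2.25 (SE 0.33) in the same direction in all 8 libraries. Ifitm1 was higher without overlap (4.24, SE 0.52) and Rsad2 by 2.91 (SE 0.47) in 7 of 8. Isg15 (1.74) and Irf7 (1.82) were higher in all 8.

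Genes of arginine use and alternative activation were higher in macrophages in all 4 members tested (median 5.99). Mrc1, the mannose receptor, was higher by 4.31 (SE 0.50). Markers of macrophages of the cord's borders, a list that includes Mrc1, summed to 141 to 6009 CPM in macrophages and 37.2 to 303 in microglia. Of the 5 of these 7 markers that were tested, 3 were higher in macrophages and none lower. The highest sum, in D1 mixed 3, came mostly from Pf4 (5914 CPM), beside 65.7 CPM of Mrc1, 19.5 of Cd163, 9.73 of Folr2 and 0 of Lyve1, Cbr2 and Siglec1. Mrc1 was highest in D2 resident 1 (158 CPM), whose macrophages also held 25.2 CPM of Lyve1, 25.9 of Cd163, 29.0 of Folr2 and 33.4 of Siglec1; the part of such cells in the values was not tested.

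Iron and antioxidant genes were higher in 9 of 11 tested, with 1 lower (median 1.11). Fth1, ferritin heavy chain, stood at 8097 to 34672 CPM in microglia and 21839 to 66530 in macrophages (1.48, SE 0.27), and Hmox1, which breaks down heme, at 142 to 2184 against 881 to 5663 (1.45, SE 0.41). Glycolysis genes gave 6 higher, 2 lower and 9 not called of 17 (median 0.21). Pfkp, a phosphofructokinase, was higher without overlap (2.47, SE 0.22), with 4.28 to 13.9 against 33.4 to 57.5 CPM, but Gapdh (-0.67, SE 0.17) and Hk2 (-0.57, SE 0.15) were lower and Ldha (-0.11) and Pkm (0.10) were not called.

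Cell cycle genes were lower in macrophages in all 12 tested, with a median of -3.55. Top2a, a topoisomerase of dividing cells, stood at 0.786 to 418 CPM in microglia (median 190) and 0 to 59.6 in macrophages (median 5.06), a difference of -4.11 (SE 0.47). Cdk1 was lower by -4.10 (SE 0.42), with 13.1 to 239 CPM against 0 to 28.6, and Pcna by -1.22 (SE 0.17). The groups overlapped for Top2a and Cdk1 although both were lower in macrophages in every library, because levels in microglia varied widely. Without the deposited clusters 6, 7 and 10, chosen for their cell cycle genes, which also dropped D2 mixed 2, 7 of these genes still passed the filter and all 7 were lower (median -2.71).

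Short motifs were counted in the 250 bases before the starts of the tested genes, using the RefSeq promoter table of GRCm38.p6, which matched 6614 of the 8163 genes. Motifs were searched on both strands: TGANTCA (the AP-1 site), GAGGAAGT (PU.1), TTGCNNAA (C/EBP) and ACGTG (hypoxia response element). The AP-1 site occurred in 7.67% of 626 promoters of genes higher in macrophages by a log2 difference of 1 or more, in 3.85% of 572 promoters of genes lower by that much, in 3.96% of all tested and in 6.87% of all 27025 promoters in the table. In the same order, the shares were 3.67%, 4.20%, 2.78% and 2.44% for PU.1, 8.95%, 8.57%, 7.30% and 9.55% for C/EBP, and 22.2%, 19.9%, 23.7% and 16.6% for the hypoxia element. A match is a description of letters, not evidence of binding.

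The promoters of Il1rn and Rsad2 are shown because both genes were higher in macrophages and hold the AP-1 letters. That of P2ry12 is shown because the gene was lower and its promoter holds none. They were picked for this contrast and do not represent the higher genes, of whose promoters only 7.67% hold the AP-1 letters. The promoter of F10, also higher in macrophages, holds a hypoxia element but no AP-1 match and is not shown. Capitals mark matches to any of these motifs, each sequence is written 5′ to 3′ on the gene's strand, and in P2ry12 they mark a hypoxia element on both strands and a C/EBP match. The windows are chr2:24336610-24336859 (plus strand) for Il1rn, chr12:26456453-26456702 (minus) for Rsad2 and chr3:59262986-59263235 (minus) for P2ry12, all on GRCm38.p6.
Il1rn: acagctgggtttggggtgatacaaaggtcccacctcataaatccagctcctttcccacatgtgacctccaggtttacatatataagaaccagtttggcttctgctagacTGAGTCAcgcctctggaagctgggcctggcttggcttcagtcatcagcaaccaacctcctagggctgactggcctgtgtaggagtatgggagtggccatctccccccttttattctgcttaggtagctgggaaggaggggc
Rsad2: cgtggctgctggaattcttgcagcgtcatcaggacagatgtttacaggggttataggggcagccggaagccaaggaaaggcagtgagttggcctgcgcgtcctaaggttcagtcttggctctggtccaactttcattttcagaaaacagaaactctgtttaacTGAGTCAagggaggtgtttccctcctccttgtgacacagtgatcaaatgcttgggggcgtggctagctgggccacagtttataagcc
P2ry12: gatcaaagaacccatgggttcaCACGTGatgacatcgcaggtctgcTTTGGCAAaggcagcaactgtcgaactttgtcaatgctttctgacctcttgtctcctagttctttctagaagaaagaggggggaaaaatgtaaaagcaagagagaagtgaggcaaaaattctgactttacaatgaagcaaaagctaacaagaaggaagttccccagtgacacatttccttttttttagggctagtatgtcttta

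The difference between the types changed with day at few genes. From day 1 to day 3, 25 genes (0.306%) passed the interaction test of edgeR, 2 (0.0245%) with a difference that moved up and 23 (0.282%) with one that moved down. From day 1 to day 2, 10 genes (0.123%) passed, among them Cd74 and Fabp4 with a difference that moved up. From day 2 to day 3, 0 of 8163 (0%) passed in edgeR, 172 (2.11%) had an unadjusted p under 0.05, and DESeq2 called 1. The day 1 values come from 2 mixed libraries of males in a sequencing pool that held none of the other 6, so day and pool cannot be told apart.

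The difference of Fn1 moved from 2.84 at day 1 to 0.26 at day 2 and -0.58 at day 3 (day 3 against day 1, -3.42, SE 0.67, adjusted p = 0.039 by edgeR). Sparc moved from -2.78 at day 1 to -7.20 and -6.45 (-3.67, SE 0.54), with 61.6 and 205 CPM in the day 1 macrophages against 2.76 to 27.8 CPM later. The median microglia marker in those day 1 macrophages stood at 8.59% and 28.5% of its microglial level, against 2.01% to 5.04% in the other 6 libraries, and in both day 1 libraries Sparc was itself the median marker. With 10% of UMIs subtracted as cross-cell RNA its change was -5.27 and was not called (adjusted p = 0.18 by edgeR), and it was not called without D1 mixed 3 either (-2.63, adjusted p = 0.24 by edgeR).

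Hist1h1e, a linker histone, went from 3.08 at day 1 to -1.81 at day 3 (-4.89, SE 0.69), as its level in microglia went from 2.33 and 4.98 CPM at day 1 to 47.1 to 625 CPM at day 3. Cenpa, a centromere histone, moved by -4.39 (SE 0.71). Its day 1 levels were low, 3.73 and 3.67 CPM in microglia and 23.1 and 6.90 CPM in macrophages of D1 mixed 1 and 3. The microglia of the days fell into the deposited clusters in different shares: cluster 6, one of those with cell cycle genes, held 1.50% and 0.303% of them in the day 1 libraries and 19.0% to 33.5% at day 3, and cluster 5 held 82.2% and 50.9% at day 1 and 9.82% to 13.8% at day 3. The part of this in the day values was not tested. St3gal6, a sialyltransferase, moved by -4.80 (SE 0.93), and the interferon-stimulated Ifit2 by -4.45 (SE 0.60). St3gal6 had only 76 UMIs in all macrophage sums together and stood at 0.511 to 2.69 CPM in those of day 3. Of the 2 genes that moved up, mt-Nd1 did so by 1.90 (SE 0.37). These day calls rest on the pair of day 1 libraries: Fn1, Hist1h1e, Cenpa, St3gal6, Ifit2 and mt-Nd1 each kept their direction but lost the call without D1 mixed 1 and again without D1 mixed 3, with adjusted p values of 0.053 to 0.42 by edgeR. Fn1, St3gal6 and mt-Nd1 also lost it without D3 resident 1, Fn1 and mt-Nd1 without D2 mixed 2, mt-Nd1 without D2 mixed 1 and St3gal6 without D3 mixed 3. With 10% of UMIs subtracted as cross-cell RNA, Fn1 lost it as well (-3.63, adjusted p = 0.12 by edgeR). The number of calls from day 1 to day 3 was 2 without D1 mixed 1, 3 without D1 mixed 3, 14 without D2 mixed 2, 16 without D3 resident 1 and 228 without D3 resident 2. From day 1 to day 2 it was 0 without D1 mixed 3, 3 without D2 mixed 2, 22 without D3 resident 2, 29 without D2 resident 1 and 66 without D3 mixed 3. Without deposited cluster 2, which spans both types and gave 9 of 28 and 15 of 54 macrophages of the day 1 libraries, 3 genes were called from day 1 to day 3 and 4 from day 1 to day 2. That fit also lost D1 mixed 1 and D2 mixed 2, which no longer held 20 cells of both types, so the effect of the cluster and of the libraries cannot be told apart.

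The reporter sort offers a comparison that uses no cell type code. Infiltrating libraries (4) were set against resident ones (3) over all their cells, with day as a term and 3 residual degrees of freedom. Macrophages were 55.6% to 69.5% of the cells in the infiltrating libraries. Cells read as dendritic cells were 6.35% to 43.4% there and those read as neutrophils 0.377% to 28.1%. In the resident libraries the shares of these last types were 0.701% to 3.77% and 0.283% to 3.14%. Their part in the sort values was not tested. Day 1 had no resident library, the day 2 infiltrating library was female and the resident one male, and sex was not a term. Of 10883 genes, 1168 (10.7%) were called, 461 (4.24%) higher and 707 (6.5%) lower in infiltrating libraries. The count was 135 without D2 resident 1, 279 without D2 infiltrating 1 and 401 without D3 resident 2, and without the filter the split was 730 higher and 755 lower. Because the resident libraries are also among the 8 pairs, the direction was read only for genes called in the 5 mixed pairs alone, which share no library with the sort. That test called 696 genes (8.43%) higher and 743 (9%) lower of 8256, or 939 genes in all without D2 mixed 1.

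Of the 696 genes higher in macrophages of mixed libraries, 641 (92.1%) had a higher level in infiltrating libraries, 156 were called higher and 2 lower, against 52.0%, 3.54% and 6.12% over the 8253 genes in both tests. Of 742 lower genes measured in both, 714 (96.2%) had a lower level there, 338 were called lower and 2 higher. Within the 2 sequencing pools that hold both sorts, the genes higher in mixed macrophages had a higher level in infiltrating libraries at 91.1% (all genes 72.8%; 1 library against 1) and 82.3% (all genes 45.3%; 3 against 1). In the second of these pools the infiltrating libraries were of day 1 and 2 and the resident one of day 3, so sort and day cannot be told apart there. The lower genes had a lower level at 82.1% and 91.9%, against 27.2% and 54.7% of all genes.

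Of the named genes, microglial Sparc and C1qa were called between the sorts, and macrophage genes were called in part. Sparc stood at 1.86 to 4.43 CPM in infiltrating and 551 to 1077 in resident libraries (-8.22, SE 0.56, adjusted p = 0.00041 by edgeR), and C1qa at 209 to 359 against 5602 to 7829.6 (-4.59, SE 0.56). Clec4e was called higher (2.57, SE 0.55, adjusted p = 0.023 by edgeR). F10 (2.13, SE 0.71) and Lyz2 (0.80, SE 0.73) were not called, with adjusted p values of 0.095 and 0.54 by edgeR. The resident libraries held macrophages too, 7.45% to 25.2% of their cells. Gpnmb differed by -0.59 (SE 0.39) between the sorts and by 6.04 (SE 0.62) between the types in the mixed libraries, and Fabp5 by 0.16 (SE 0.55) and 3.85 (SE 0.48).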

How the data were processed

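Per the file headers, what the authors deposited are unnormalized UMI counts (genes by cells, 1 matrix for each 10x 3′ library) and a table with total counts, percent of mitochondrial counts, cluster, cell type and sequencing pool (SLX) codes per cell. Cell Ranger 3.1.0 and GRCm38 are named in the submitters' processing notes; cell filters are not given in the sources used here. The deposited percent of mitochondrial counts gave the median share per cell and was not used in any test; mitochondrial shares of summed counts are from the counts. Cell sums equalled the deposited totals for every cell.

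Counts were summed per type and library (at least 20 cells) and fitted with edgeR 4.0.16 in R 4.3.3: TMM, filterByExpr, library and type as terms, quasi-likelihood test, 2-sided, Benjamini-Hochberg over all genes tested. The library term pairs the types because both come from the same mice and capture. CPM in the text are TMM-scaled, except those of marker lists, cross-cell RNA and genes under the filter, which are plain. DESeq2 1.42.0 was an alternative. On simulated data of 8163 genes the paired test recovered 74% of changes of log2 1 and 99% of log2 2, and the day 3 against day 1 test 50% of log2 2 and 93% of log2 4, with 5 and 11 false calls.

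The comparison, the gene lists and the alternatives were chosen with earlier results of these data known. Named genes are the 8 largest changes per direction (same direction in all 8 libraries, mean of at least 50 CPM), up to 3 called per list and direction, 15 lineage and activation genes, and the 4 largest per direction of the day test; other list members are named as examples, and some genes under this rule are not reported here. A library whose title and sort label conflict was left out. Sex-linked genes and reporter transcripts were not analysed.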

Additional observations from a re-analysis of the deposited data

Results flagged for a closer look

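Among 105 named genes, 7 had a library whose log2 ratio of macrophages to microglia lay far from the other 7 libraries by Dixon's criterion, which chance meets in about 1 of 20 groups. D3 mixed 3 accounted for 4 of them: F10 (2.62, others 5.52 to 6.34), Sirpb1c (2.12, others 4.12 to 5.27), Thbs1 (2.32, others 5.65 to 7.44) and Csf1r (-3.30, others -2.34 to -1.67). D1 mixed 3 accounted for Gpr34 (-2.74, others -6.59 to -5.08) and Jam2 (-0.97, others -4.70 to -3.44). D3 resident 2 stood out for Nrros (1.84, others -0.06 to 0.80). In D3 mixed 3, 2676 of the 3019 macrophages belong to deposited cluster 9, and macrophage markers reached their highest share in microglia (16.3%); in D1 mixed 3 microglia markers reached their highest share in macrophages (28.5%). The part of either in these values was not tested.

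The difference between the types was found to change with day in 25 genes from day 1 to day 3 and in 10 genes from day 1 to day 2, by the interaction test.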

How the results depend on the processing

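The number of genes that differed between the types, 3153 with pairing, was 2712 with no replicate block, the same fit without the library term. It was 2004 with at least 50 cells of both types, 1439 in mixed libraries alone and 1913 of 4662 genes tested at equal depth; leaving out 1 library in turn gave 2536 to 3490. It stayed within 1.5 times of the paired count under the other alternatives, 2 of them chosen after seeing the data (2654 without clusters 2, 3 and 14 in macrophages, 3416 without D2 mixed 2 and D3 mixed 3).

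The change from day 1 to day 3 (25 genes) was 64 with DESeq2, 207 with no filter, 3 without cluster 2, 16 with 10% of UMIs subtracted, 475 in mixed libraries alone, 5 without clusters 2, 3 and 14, and 2 to 228 leaving out 1 library. From day 1 to day 2 (10 genes) it was 39 with DESeq2, 144 with no filter, 4 without cluster 2, 76 in mixed libraries alone and 0 to 66 leaving out 1 library. From day 2 to day 3 (0 genes) it was 1 with DESeq2, 21 with no filter and 10 in mixed libraries alone. The sort comparison (1168 genes) gave 1847 with DESeq2, 1919 without the day term and 135 to 1204 leaving out 1 library, and the mixed pairs (1439) 939 to 1871.

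Signs reversed for Ccl3 without the block (0.17), Spp1 in resident libraries alone (-0.10), without cluster 2 (-0.038) and without D2 mixed 2 and D3 mixed 3 (-0.087), and, between types captured apart, for Ctsb (-0.20), Cd68 (-0.047), Lamp1 (-0.071) and Apoe (-0.75). The cause of these changes was not tested, except that fewer genes or libraries entered some fits: leaving out cluster 2 also dropped D1 mixed 1 and D2 mixed 2, clusters 6, 7 and 10 dropped D2 mixed 2, and clusters 2, 3 and 14 dropped D1 mixed 1. Depth limits low genes most: D2 mixed 2 rested on 23 microglia.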

Other observations

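Mitochondrially encoded genes, chosen after their values were seen, were all lower in macrophages: 13 of 13 tested genes were called, with log2 differences from -1.77 to -0.55 and a median of -1.30. The AP-1 genes Fos (3.81, SE 0.40), Jun (2.62, SE 0.24) and Atf3 (1.48, SE 0.24), also chosen after their values were seen, were higher in macrophages. They are not the whole family: Fosl2 is given above, and Fosb, Junb, Jund and Batf were looked at but their values are not given. Anxa1, an inhibitor of inflammation, stood at a mean of 3.66 CPM in microglia and 220 CPM in macrophages (6.60, SE 0.43). The microglial genes Olfml3 (-4.44, SE 0.29) and Fcrls (-4.24, SE 0.34) had mean levels of 1290.4 and 1576 CPM in microglia and 60.0 and 85.3 CPM in macrophages.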
